A study of Homo sapiens with 25 samples.

Results

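The baseline of HEC-1A cells was described from the 9 untreated libraries among the 25 samples of the series, chosen by their label and by no measured value. HEC-1A is an established epithelial line from a human endometrial adenocarcinoma, labelled WT in every group, so 1 line stands for this tumour type. Cells given 20 µM THC (tetrahydrocannabinol, a cannabinoid) for 24 h or 72 h (RNA and ATAC), or for a time the labels do not give (H3K4me3), formed 15 libraries, which were used only for the comparison at the end. The untreated group held 3 RNA-seq libraries, 3 ATAC-seq libraries, which map accessible DNA by transposon insertion, and 3 CUT&RUN libraries of H3K4me3, trimethylation of lysine 4 of histone H3. RNA was deposited as TPM, an abundance scaled for transcript length and library total. TPM keeps no sequencing depth, so the depth of each library is unknown. Replicates are labelled as biological without a statement that each was its own culture. Errors and p-values therefore cover the spread among the libraries, and that spread may be technical.

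H3K4me3 is placed by the KMT2 and SETD1 methyltransferases and removed by KDM5 demethylases, and it is concentrated around the starts of transcribed genes. Accessible DNA, where nucleosomes are displaced, marks both promoters and more distant elements. CpG-rich promoters carry H3K4me3 in most tissues, while CpG-poor promoters tend to serve genes of particular cell types. The uterine epithelium descends from the Müllerian duct and keeps transcription factors of that origin, PAX8 among them, and in the normal tissue it responds to oestrogen and progesterone through ESR1 and PGR.

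The description covered 19194 protein-coding genes on chromosomes 1 to 22 and X. Of these, 11338 had a mean of at least 1 TPM over the 3 untreated libraries (59.1%) and are called expressed, and 6173 had less than 0.1 TPM (32.2%) and are called silent. Of the silent genes, 3350 were listed at 0 in all 3 libraries. A gene start was called marked in a library when a peak lay within 1000 bases of it, and 3820 genes whose strand was not at hand were scored at both ends. H3K4me3 was listed in 3 of 3 libraries at the starts of 59% of all genes, ATAC at 61.3%, and both at 56.5%.

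Promoter sequences of 6 genes show the range of starts in these cells. CLDN4, PAX8 and HOXA4 were expressed with both marks, FKBP5 was silent with both marks, SOX2 was silent with ATAC and no H3K4me3, and PTPRC was silent with neither. Each runs 5′ to 3′ on the gene's own strand, from 250 bases before the start to 50 after it, from RefSeq on GRCh38.p14, with CpG dinucleotides in capitals. CLDN4 lies at chr7:73830746-73831045 on the plus strand, PAX8 at chr2:113278872-113279171 on the minus strand and HOXA4 at chr7:27130708-27131007 on the minus strand. FKBP5 lies at chr6:35728534-35728833 on the minus strand, SOX2 at chr3:181711675-181711974 on the plus strand and PTPRC at chr1:198638790-198639089 on the plus strand.
CLDN4: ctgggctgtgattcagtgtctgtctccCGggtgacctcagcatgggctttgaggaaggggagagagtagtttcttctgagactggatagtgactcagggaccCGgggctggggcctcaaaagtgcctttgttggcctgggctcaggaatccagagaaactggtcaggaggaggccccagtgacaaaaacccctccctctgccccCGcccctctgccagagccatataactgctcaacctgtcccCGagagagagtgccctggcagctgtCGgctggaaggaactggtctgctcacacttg
PAX8: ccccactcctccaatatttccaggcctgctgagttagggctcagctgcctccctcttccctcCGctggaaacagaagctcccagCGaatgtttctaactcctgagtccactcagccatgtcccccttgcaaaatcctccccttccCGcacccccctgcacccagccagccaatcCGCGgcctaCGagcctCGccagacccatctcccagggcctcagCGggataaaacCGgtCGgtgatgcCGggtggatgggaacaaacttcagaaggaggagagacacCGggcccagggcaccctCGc
HOXA4: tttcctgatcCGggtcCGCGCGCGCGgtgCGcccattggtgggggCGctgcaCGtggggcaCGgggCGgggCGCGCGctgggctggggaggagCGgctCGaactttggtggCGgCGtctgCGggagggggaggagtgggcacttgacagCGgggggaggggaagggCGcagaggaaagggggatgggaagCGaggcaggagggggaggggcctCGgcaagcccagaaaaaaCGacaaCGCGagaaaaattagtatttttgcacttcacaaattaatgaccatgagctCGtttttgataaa
FKBP5: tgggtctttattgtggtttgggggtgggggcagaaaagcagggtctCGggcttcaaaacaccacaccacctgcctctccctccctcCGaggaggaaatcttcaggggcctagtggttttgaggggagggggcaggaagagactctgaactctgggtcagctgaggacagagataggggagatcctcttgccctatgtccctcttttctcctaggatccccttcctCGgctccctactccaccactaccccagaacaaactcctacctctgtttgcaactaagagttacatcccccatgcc
SOX2: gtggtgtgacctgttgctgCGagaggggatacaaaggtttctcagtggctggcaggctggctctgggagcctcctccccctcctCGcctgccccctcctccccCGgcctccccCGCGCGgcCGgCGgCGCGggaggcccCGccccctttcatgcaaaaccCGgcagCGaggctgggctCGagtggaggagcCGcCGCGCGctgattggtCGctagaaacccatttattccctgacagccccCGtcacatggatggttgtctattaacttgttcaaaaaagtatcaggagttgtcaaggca
PTPRC: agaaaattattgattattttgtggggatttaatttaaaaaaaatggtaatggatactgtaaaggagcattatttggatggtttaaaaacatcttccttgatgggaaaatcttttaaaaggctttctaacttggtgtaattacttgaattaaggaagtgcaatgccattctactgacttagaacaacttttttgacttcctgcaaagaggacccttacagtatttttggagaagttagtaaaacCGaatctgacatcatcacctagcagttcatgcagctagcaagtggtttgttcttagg
The sequences held 5 CpG in CLDN4, 13 in PAX8, 27 in HOXA4, 3 in FKBP5, 20 in SOX2 and 1 in PTPRC. CpG number did not order these 6 starts by mark, since the CLDN4 start with both marks held fewer than the SOX2 start without H3K4me3.

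Markers of simple epithelium were expressed. The 5 that define the cell type all had both marks in 3 of 3 libraries. KRT7, a keratin of simple and glandular epithelia, had 977, 948 and 952 TPM. KRT18, also a keratin of simple epithelia, had 525, 544 and 479 TPM, and its filament partner KRT8 had 350.0, 346 and 336 TPM. EPCAM, an epithelial adhesion molecule, had 361, 379 and 366 TPM. CDH1, which encodes E-cadherin of adherens junctions, had 96.5, 104 and 103 TPM. The order KRT7, KRT18, EPCAM, KRT8 and CDH1 held in every library, and no neighbours in that order overlapped. KRT8 and KRT18 lie side by side and shared 1 H3K4me3 region, chr12:52945033-52951366 on GRCh38, so their marks are not separate observations. The region at KRT7 was chr12:52229950-52235954, that at EPCAM chr2:47367949-47371371 and that at CDH1 chr16:68736634-68739297. KRT8 and KRT18 have near-identical copies elsewhere in the genome, so their levels are uncertain.

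Of 30 epithelial markers 26 were expressed, and 26 had both marks in 3 of 3 libraries, where 59.1% and 56.5% of all genes did. The tight-junction claudins CLDN4 and CLDN7 averaged 391 ± 8.44 and 168 ± 1.46 TPM (SD, n = 3, as for all averages of untreated cells here). The protease inhibitor SPINT2 averaged 866 ± 30.8 TPM, and LAMB3, a laminin chain of the basement membrane, 112 ± 4.35 TPM. Epithelial transcription factors were lower, with ELF3 at 59.5 ± 4.88, OVOL2 at 9.61 ± 1.20 and GRHL2 at 1.90 ± 0.103 TPM. The 4 markers below 1 TPM were OVOL1, EHF, RAB25 and CDH3. OVOL1, a zinc-finger factor of epithelia, was silent at 0.0251 TPM although its start carried H3K4me3 in 3 of 3 libraries. EHF, an ETS factor of epithelia, had 0.664 ± 0.201 TPM and neither mark at its annotated start. TJP1, the tight-junction scaffold, had 67.7 ± 5.61 TPM with no H3K4me3 at its annotated start in any library, but with H3K4me3 elsewhere in the gene. In bulk RNA, fewer cells of a type and less RNA per cell cannot be told apart.

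Müllerian factors spanned a wide range of levels. PAX8, the lineage factor of the Müllerian epithelium and also of kidney and thyroid, had 241, 244 and 261 TPM. Its H3K4me3 region covered 13093, 13258 and 13149 bases, rank 38 by mean width among the 11333 starts marked in 3 of 3 libraries. Its relative PAX2 had 13.02, 13.04 and 12.8 TPM and a region of 12936 bases on average (rank 39), with ATAC in 2 of 3 libraries. The regions of the 2 PAX genes were thus alike in width while PAX8 was far higher in TPM, with no overlap between libraries. SOX9, a factor of gland epithelium, averaged 38.4 ± 2.92 TPM, WNT7A, a Wnt ligand of the uterine epithelium, 10.3 ± 0.617 TPM, and SOX17, a factor of endometrial glands, 1.84 ± 0.239 TPM. EMX2, required for the urogenital tract in mice, was listed at 0 in all 3 libraries with no H3K4me3 at its start, though ATAC was listed there in 2 of 3. The Wnt ligand genes WNT4 and WNT5A had 0.152 and 0.666 TPM, with ATAC in 3 of 3 libraries and H3K4me3 in none. Of the 23 genes of this list 14 were expressed and 15 had H3K4me3 in 3 of 3 libraries, where 59.1% and 59% of all genes did. These counts are near the shares of all genes and say nothing particular about the list.

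The main receptors for oestrogen and progesterone were listed at 0. ESR1 and PGR were at 0 in all 3 libraries, and neither had H3K4me3 at its start in any library. TFF1 and TFF3, trefoil peptides of which oestrogen induces TFF1 in breast cells, and the hedgehog ligand IHH were also listed at 0. The oestrogen target GREB1 had 0.443 ± 0.111 TPM. ESR2, the other oestrogen receptor, had 0.136, 0.156 and 0.145 TPM, with both marks in 3 of 3 libraries. The glucocorticoid receptor NR3C1 averaged 3.83 ± 0.177 TPM with no mark at its annotated start, and H3K4me3 lay elsewhere in the gene. FKBP5, which glucocorticoid and progestin induce in many cells, had 0.0284, 0.0428 and 0.0245 TPM. Its H3K4me3 region, chr6:35725923-35729288, was nonetheless listed in all libraries and held an ATAC region. PGRMC1 and PGRMC2, membrane-associated haem-binding proteins, averaged 114 ± 3.69 and 68.1 ± 2.90 TPM. PDZK1, a scaffold protein that oestrogen induces in breast cells, averaged 88.1 ± 3.69 TPM. Of the 20 receptors and targets 6 were expressed and 10 were silent.

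Secretory genes of the endometrium were mostly silent, with a few at very high level. SPP1, the secreted phosphoprotein osteopontin, averaged 1496 ± 33.5 TPM and DPP4, a cell-surface peptidase, 352 ± 8.40 TPM. LIF, a cytokine of embryo implantation, averaged 69.4 ± 2.11 TPM. PAEP (glycodelin) averaged 0.0876 TPM, and OLFM4, SCGB2A1, SCGB2A2 and MMP26 were listed at 0. Of 16 such genes 3 were expressed and 11 silent. Among ciliated-cell genes the master regulator FOXJ1 averaged 11.8 ± 0.355 TPM and the axonemal dynein DNAH5 7.36 ± 0.525 TPM, both with both marks. SNTN, a protein of the ciliary tip, was listed at 0, and 5 of the 13 ciliated-cell genes measured were expressed. Among basal and squamous genes, SFN (14-3-3 sigma) averaged 255 ± 11.5 TPM and KRT15 19.3 ± 1.91 TPM, whereas the basal regulator TP63 and the basal keratins KRT5 and KRT14 were below 0.1 TPM.

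**Figure D1:**
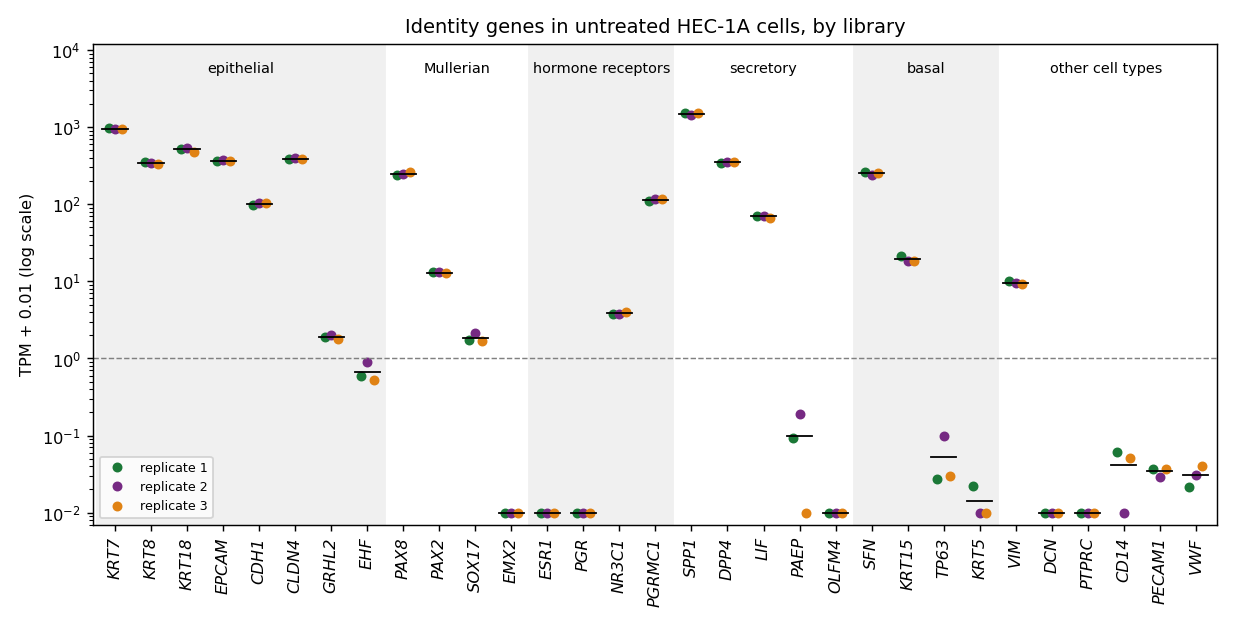
TPM plus 0.01 on a log scale (y axis) for identity genes (x axis) in each of 3 untreated RNA libraries (points) with their mean (bar); the dashed line is at 1 TPM and points at the bottom are listed at 0. KRT7 sits near 959 TPM and PAX8 near 249 TPM, while ESR1, PGR, DCN and PTPRC are at 0 in all 3 libraries.

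Markers of other cell types were low or at 0. Of 15 immune markers 1 was expressed, CD8A at 1.10 TPM, and PTPRC and CD3D were listed at 0. Of 10 endothelial markers none reached 1 TPM, the highest being ESAM at 0.187 TPM. The summed level of the endothelial list lay between 0.255 and 0.306 TPM, that of the immune list between 2.13 and 2.36 TPM, and that of the epithelial list between 5105 and 5259.8 TPM. Of 14 stromal markers 3 were expressed, with the smooth-muscle actin ACTA2 highest at 5.61 ± 0.497 TPM and the collagen COL1A1 at 2.98 ± 0.101 TPM, while DCN, LUM and COL1A2 were listed at 0. Mesenchymal genes were low, but 5 of 10 were expressed and 5 had both marks in 3 of 3 libraries. Of all genes 59.1% and 56.5% did, so these counts say nothing particular about the list. The intermediate filament VIM was highest at 9.56 ± 0.387 TPM, and the factors SNAI1 and ZEB1 averaged 3.53 ± 0.244 and 1.11 ± 0.161 TPM. None of 17 intestinal, liver and lung genes reached 1 TPM. Higher levels in lists of other lineages were those of MITF, listed as a melanocyte factor, the cancer-testis gene PRAME, and POU5F1. MITF had 33.8 ± 0.806 and PRAME 127 ± 2.10 TPM, both with H3K4me3 in 3 of 3 libraries. Levels are per gene, so transcripts of MITF from different starts were not told apart. POU5F1 had 19.6 ± 2.26 TPM. The strand of POU5F1 was not at hand, and its H3K4me3 region lay at the lower coordinate only, so it need not mark the start. POU5F1 has near-identical retrogene copies, so its level is uncertain, and the other pluripotency factors NANOG and SOX2 were below 0.1 TPM.

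HOX genes, which set position along the body axis, were highest at the anterior end of the A cluster. HOXA4 had 40.03, 37.5 and 41.3 TPM, and HOXA5 15.3, 25.2 and 19.2 TPM. HOXA2 and HOXA3 averaged 8.06 ± 0.439 and 19.4 ± 1.22 TPM. HOXA10 and HOXA11, genes of the uterus along the Müllerian axis, averaged 0.175 ± 0.0555 and 0.458 ± 0.0663 TPM, and the most posterior gene HOXA13 0.00757 TPM. Every library value of HOXA2 to HOXA5 lay above every value of HOXA10, HOXA11 and HOXA13. HOXB7 was the highest of the B cluster at 27.1 ± 2.30 TPM and HOXD8 of the D cluster at 5.05 ± 0.450 TPM. In all, 15 of 39 HOX genes were expressed and 21 had H3K4me3 at the start in 3 of 3 libraries, where 59.1% and 59% of all genes did.

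Of 22 genes recurrently altered in endometrial carcinoma 21 were expressed and 22 had H3K4me3 in 3 of 3 libraries. Of all genes 59.1% were expressed and 59% had H3K4me3 in 3 of 3 libraries. β-catenin (CTNNB1) averaged 375 ± 10.98, the chromatin remodeller ARID1A 51.2 ± 1.86 and the mismatch repair gene MSH6 39.8 ± 0.406 TPM. The exception was ARID5B, at 0.117 ± 0.0427 TPM. All 18 genes listed for H3K4 methylation and demethylation were expressed and had H3K4me3. Among them were the demethylase KDM5C at 107 ± 3.05 and the methyltransferase KMT2D at 26.2 ± 3.01 TPM. All 17 listed housekeeping genes were also expressed with H3K4me3 in 3 of 3 libraries, so these counts are not particular to either list.

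The 3 RNA libraries were close replicates, with Pearson's r of log2 values between 0.993 and 0.994 across 13577 genes, which are not independent replicates. The median coefficient of variation of expressed genes was 5.06%. H3K4me3 lists were alike in size, with 33470, 33885 and 33850 peaks, and pairs shared 75.7% to 76.8% of the bases covered by either. ATAC lists differed in size, with 150884, 65042 and 99912 peaks, and pairs shared 35.3% to 42.6% of bases. Merged over libraries, 25472 of 41677 H3K4me3 regions (61.1%) and 46019 of 190244 ATAC regions (24.2%) were listed in 3 of 3 libraries. Of these H3K4me3 regions 77.9% overlapped such an ATAC region, and of these ATAC regions 50.8% overlapped such an H3K4me3 region.

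Both marks followed expression at the gene start. H3K4me3 was listed at 91.4%, 91.8% and 91.7% of expressed starts and at 7.29%, 8.05% and 7.91% of silent starts in the 3 libraries. ATAC was listed at 93.2%, 90.7% and 92.9% of expressed starts and at 41.5%, 16.4% and 29.00% of silent starts. At silent genes the ATAC share followed the length of the peak list, while the H3K4me3 share varied little. With only ATAC peaks of a -log10 q of at least 5, the share was 81.5% of expressed and 6.96% of silent starts. When each list was held to its 65042 strongest peaks, an alternative chosen after seeing the data, the shares were 91.00% of expressed and 16.7% of silent starts. The share of silent starts with ATAC thus moved by more than 1.5 times with the peak threshold, and expressed starts stayed above silent ones in each setting.

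By class of expression the share with H3K4me3 was 3.06 ± 0.124% of genes listed at 0, 13.3 ± 0.737% of those above 0 and under 0.1 TPM, and 40.7 ± 1.22% between 0.1 and 1 TPM (SD, n = 3 libraries). It was 75.02 ± 0.711% between 1 and 5 TPM, 92.1 ± 0.240% between 5 and 20, 95.1 ± 0.0325% between 20 and 100, and 96.8 ± 0.0702% at 100 TPM and above. The steepest part of this curve lay between 0.1 and 5 TPM. ATAC was listed at 22.8 ± 12.4% of starts of genes at 0, 56.2 ± 9.17% between 0.1 and 1 TPM and 96.5 ± 0.246% at 100 TPM and above. The far ends of 15374 genes with a known strand gave a background for these windows. At expressed genes 91.6 ± 0.135% of starts and 14.99 ± 0.0428% of far ends had H3K4me3, and 92.2 ± 1.24% of starts and 14.5 ± 4.48% of far ends had ATAC. At genes listed at 0 H3K4me3 was at 2.19 ± 0.0807% of starts, below the 2.82 ± 0.0448% at their own far ends. Far ends of genes at 100 TPM and above had H3K4me3 in 26.8 ± 0.292%.

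**Figure D2:**
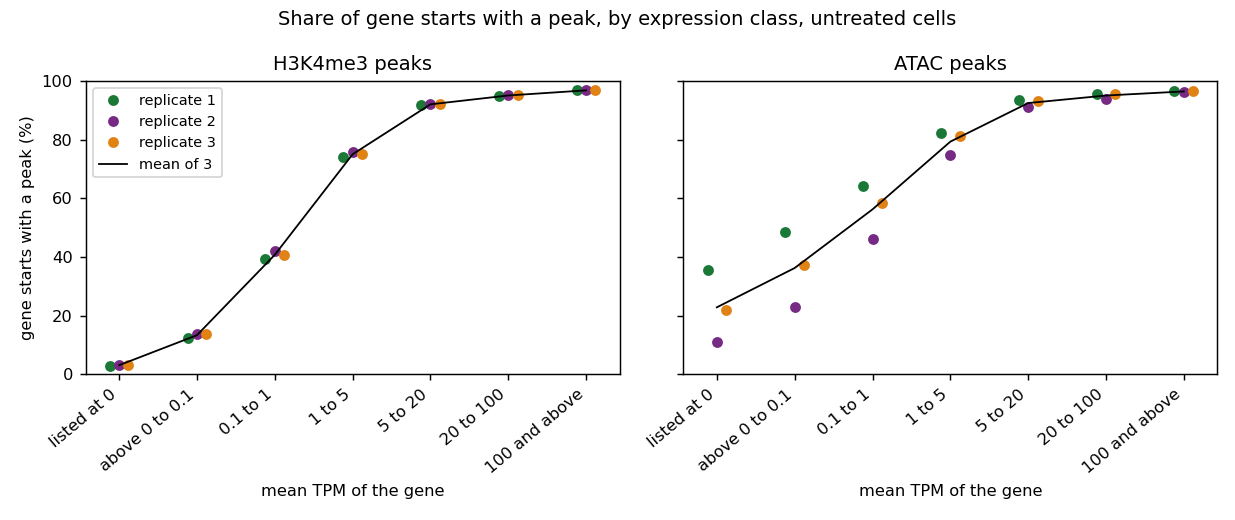
Percent of gene starts with an H3K4me3 peak (left) or an ATAC peak (right) on the y axis, by class of mean TPM on the x axis, in each untreated library (points) with the mean of 3 (line). H3K4me3 points lie close together in every class, while ATAC points spread between 10.9% and 35.6% among genes listed at 0 and meet near 96.5% at 100 TPM and above.

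The marks combined into 4 states that were the same in all libraries. The 10851 genes with both marks in 3 of 3 libraries had a median of 23.5 TPM, and 92.5% were expressed. The 191 genes with H3K4me3 in 3 of 3 and ATAC in 0 of 3 (0.995% of genes) had a median of 3.40 TPM, and 58.6% were expressed. The 699 genes with ATAC in 3 of 3 and H3K4me3 in 0 of 3 (3.64%) had a median of 0.0312 TPM, and 19.03% were expressed. A start open in all libraries but without H3K4me3 was thus much closer in level to an unmarked start than to one with both marks. The 4038 genes with neither mark in any library (21%) had a median of 0.00286 TPM, and 12.3% were expressed. The remaining 3415 genes varied between libraries. Medians from each RNA library alone were 23.1, 24.1 and 23.4 TPM for both marks and 0.0294, 0.0291 and 0.0277 TPM for ATAC without H3K4me3, a gap far larger than the spread between libraries.

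Of the 122 silent genes of the identity lists 11 (9.02%) were open in all ATAC libraries with no H3K4me3 in any, where 6.92% of all silent genes were. The share is near that of all silent genes and says nothing particular about the lists. Examples are SOX2 of pluripotent and neural cells, TP63 of basal epithelium, NKX2-1 of lung and thyroid, TWIST1 of mesenchyme, and HOXA13 and HOXD13 of the posterior axis. SOX2 had 0, 0 and 0.0125 TPM, and TWIST1 and NKX2-1 were listed at 0 in all libraries. One of the ATAC regions at SOX2, chr3:181711738-181711937, lies inside the promoter sequence printed above. Genes with H3K4me3 and no ATAC at the start included expressed ones: RPL41, a ribosomal protein gene at 4637 ± 273 TPM, KDM2B, a histone demethylase gene at 12.2 ± 0.835 TPM, and HOXA3. Another expressed gene's start lay within 2000 bases of that of RPL41, so the H3K4me3 region there need not belong to RPL41. The region at HOXA3, chr7:27147763-27151716, was also the one scored at HOXA6, so it need not belong to HOXA3.

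**Figure D3:**
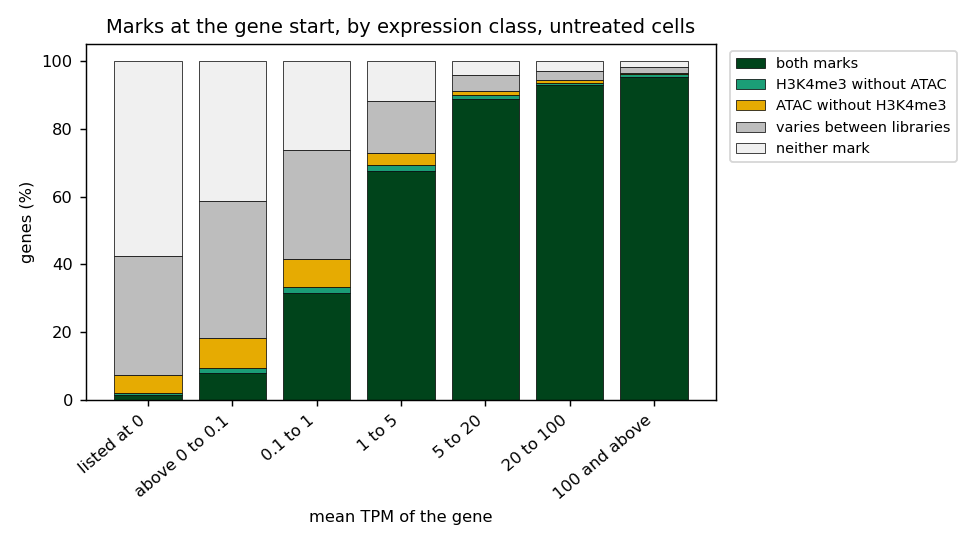
Stacked bars give the percent of genes (y axis) in each state of marks at the start, by class of mean TPM (x axis) in untreated cells. Both marks cover 1.67% of genes listed at 0 and 95.4% of genes at 100 TPM and above, and ATAC without H3K4me3 is at most 8.68% in any class.

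H3K4me3 regions were wider at starts of more highly expressed genes. The median width at marked starts was 1271 ± 22.7 bases for genes listed at 0, 2525 ± 9.17 bases between 1 and 5 TPM, 3595 ± 20.2 bases between 20 and 100 TPM and 4114 ± 58.5 bases at 100 TPM and above. Spearman's rho of width and TPM across marked genes was 0.41, 0.44 and 0.42 in the 3 libraries (11481 to 11608 genes, a description across genes that share libraries). Among expressed genes alone it was 0.32, 0.34 and 0.33. ATAC widths gave a rho of 0.44, 0.30 and 0.41 over all marked starts (12076 to 14209 genes), and of 0.10, 0.08 and 0.11 among expressed genes. ATAC width therefore had little relation to level once a gene was expressed, and rho over all marked starts was 0.17 on average with peaks of a -log10 q of at least 5. In the narrowest of 10 equal groups of H3K4me3 regions the median was 1.69 TPM and 57.5% of genes were expressed. In the widest group the median was 47.98 TPM and 97.6% were expressed. Another gene's start lay within 2000 bases for 21.4% of genes in the narrowest group and 59.6% in the widest, and rho was 0.50 on average without such genes.

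**Figure D4:**
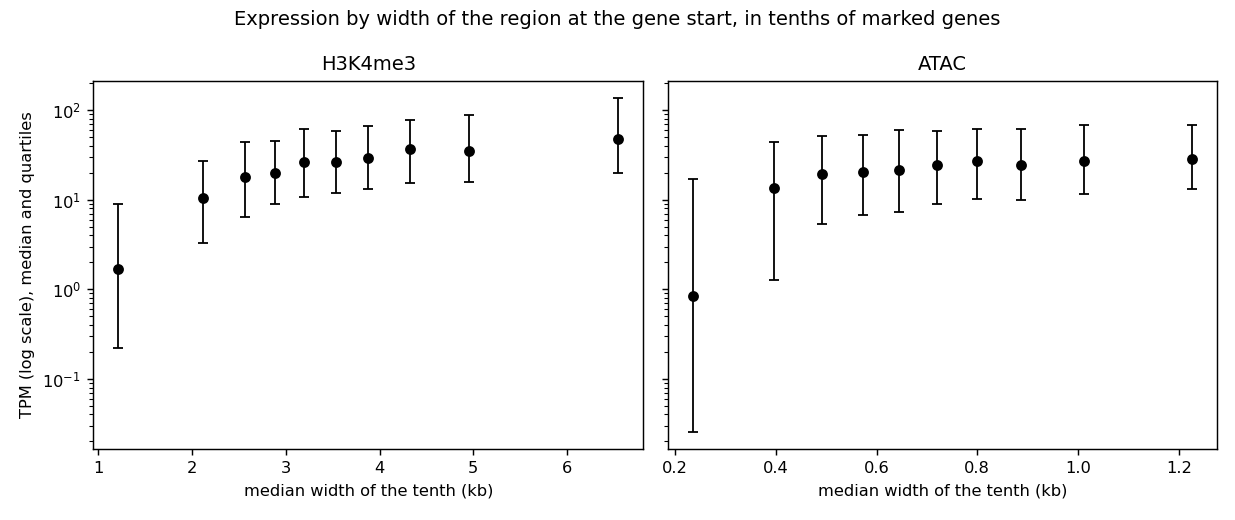
Median TPM on a log scale (y axis, points, bars from the lower to the upper quartile) against the median width in kb (x axis) of each of 10 equal groups of starts marked in 3 of 3 untreated libraries, for H3K4me3 (left) and ATAC (right). H3K4me3 medians range between 1.69 TPM in the narrowest group and 47.98 TPM in the widest, while ATAC medians beyond the second group stay between 19.6 and 28.4 TPM.

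The widest H3K4me3 region at a gene start lay over HOXA4 and HOXA5, with 35305, 35471 and 35518 bases in the 3 libraries, at chr7:27108865-27144464. Next came BCL9L, a co-activator of β-catenin, with 24562 ± 319 bases at 93.9 ± 4.58 TPM, and NRIP1, a co-regulator of nuclear receptors, with 19038 ± 859 bases at 33.7 ± 3.26 TPM. CBX3, a heterochromatin protein gene, and HNRNPA2B1, an RNA-binding protein gene, shared 1 region of 18016 ± 937 bases, with 459.5 ± 7.76 and 1867 ± 89.96 TPM. ITGA3, an integrin of epithelial adhesion, had 17394 ± 3320.1 bases and 582 ± 31.04 TPM. FIGN, the cytokine gene CLCF1 and SPRY1, an inhibitor of growth factor signalling, completed the 10 widest starts, with 28.8 ± 2.04, 22.9 ± 1.34 and 94.95 ± 5.02 TPM. These 10 were all expressed, but HNRNPA2B1 alone was above 1000 TPM.

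The genes of highest level were FTH1 and FTL of the iron store ferritin, at 20760.1 ± 754 and 8176 ± 324 TPM, TMSB10, an actin-binding peptide, at 7041 ± 389 TPM, and GAPDH of glycolysis at 6589 ± 149.8 TPM. PPIA, EEF1A1, ACTB, RPL41, ACTG1 and TUBA1B followed, between 3957 and 6475 TPM. Many of these have near-identical copies in the genome, so their levels are uncertain. Their H3K4me3 widths spread between 4220.3 bases at TMSB10 and 12665 bases at FTH1. None was among the 10 widest, but FTH1 ranked 48 by mean width among the 11333 starts marked in 3 of 3 libraries. The widest of 10 equal groups of these starts began at 5537 bases, and only TMSB10 and TUBA1B lay below that width.

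Silent genes with H3K4me3 in 3 of 3 libraries numbered 393 of 6173 (6.37%). Of these, 193 had another gene's start within 2000 bases, and 138 had the start of an expressed gene there (35.1%, against 3.39% of all silent genes). ATAC was listed in 3 of 3 libraries at 284 of them. The silent gene with the widest region was IFFO1, scored at both ends, whose window reached into the 11111-base region at the neighbouring GAPDH. SLC34A3, a phosphate transporter, had 7274 ± 631 bases at 0.0467 TPM and BAHCC1 6789 ± 134 bases at 0.0246 TPM, neither with another start within 2000 bases. CIITA, the activator of MHC class II genes, had 6626 ± 389.8 bases near an expressed start and 0.0119 TPM. H2AC7 and H3C4, replication histone genes that share a region, RNF151, TNFSF12 and its read-through TNFSF12-TNFSF13 were listed at 0, and UNC79 had 0.0630 TPM. Whether these RNA libraries capture transcripts of replication histone genes was not tested, so a listing at 0 need not mean that H2AC7 and H3C4 are silent. IFFO1, RNF151, CIITA, TNFSF12 and TNFSF12-TNFSF13 had no strand at hand and a region at 1 end only, so those regions need not lie at their starts. Olfactory receptor genes, which work in nasal neurons, were almost unmarked: 380 of 387 were silent, 1 had H3K4me3 in 3 of 3 libraries and 10 had ATAC in 3 of 3.

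Expressed genes with neither mark at the annotated start numbered 497 of 11338 (4.38%). For 389 of them H3K4me3 was listed elsewhere in the gene, and for 421 ATAC was. The 10 highest include TUBA1C, a tubulin gene, at 1424 ± 73.9 TPM and the tropomyosin gene TPM3 at 519 ± 12.3 TPM. ATP5MC2, CLDN16, PDIA6, PRKAR1A, COX7A2 and HAVCR1, between 244 and 341 TPM, were also among the 10 highest, and each of these 8 had H3K4me3 elsewhere in the gene. DHRS2, a short-chain dehydrogenase, differed from them: at 256, 254 and 241 TPM it had neither mark in the gene, and the nearest H3K4me3 region was 40.4 kb away. Genes of this kind numbered 70, with a median of 2.45 TPM and a median distance of 10.4 kb to the nearest such H3K4me3 region. LIF was the second highest of them, 1.22 kb from the nearest region, and IFI44, an interferon-induced gene, the third at 43.1 ± 0.638 TPM. KRT15 lay 1.08 kb from its nearest region.

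The sequence at the start differed between states. Among 14113 promoters the 300 bases around the start held a median of 27 CpG dinucleotides with both marks, 17.5 with ATAC and no H3K4me3, 7 with H3K4me3 and no ATAC, and 4 with neither. Observed over expected CpG had a median of 0.859 with both marks and 0.249 with neither. Silent genes with H3K4me3 had a median of 19 CpG and silent genes without it 6, whereas expressed genes with H3K4me3 had 27 and expressed genes without it 9. The marked silent starts thus held more CpG than the unmarked expressed starts.

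Motif letters were searched on both strands, and none of the motifs contains another. TATAAA, the TATA box, was in 4.74% of promoters with both marks, 22.3% with neither and 9.75% of all. GGGCGG, the GC box, was in 73.9% with both marks, 23.4% with neither and 59.7% of all. CCGGAAGT, an ETS motif, was in 10.3% with both marks, 0.684% with neither and 6.58% of all. GC-rich letters were thus more frequent at starts with both marks, where the median GC content was 65.7%, against 48.3% with neither, and base composition was not matched. The NRF1 motif, searched as its palindromic consensus, was in 2.82% with both marks, 0.108% with neither and 1.83% of all, and TGACGTCA, the CREB motif, in 3.42%, 1.08% and 2.71% of the same sets. TGANTCA, the AP-1 motif, ran the other way, in 3.84% with both marks, 10.4% with neither and 5.68% of all. CCAAT was in 38.4%, 38.6% and 36.95%. In the printed promoters GGGCGG was found in CLDN4, HOXA4 and SOX2, CCAAT in PAX8, HOXA4 and SOX2, TGANTCA in CLDN4, and none of the 7 in FKBP5 or PTPRC.

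**Figure D5:**
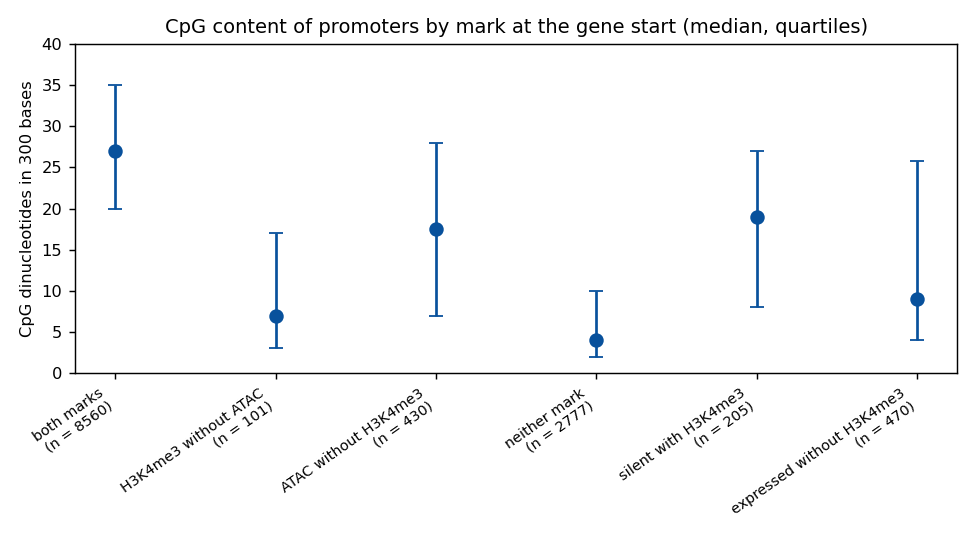
CpG dinucleotides in 300 bases around the start (y axis; points are medians, bars run from the lower to the upper quartile) for promoters grouped by mark and expression in untreated cells (x axis). The median is 27 with both marks and 4 with neither, and 19 at silent genes with H3K4me3 against 9 at expressed genes without it.

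Accessible regions away from a gene's own start differed between the ends of the range of levels but not in step with level between them. Regions at the starts of other genes were not removed from these counts. Of all ATAC regions listed in 3 of 3 libraries 24.99% lay at a gene start. The counts are therefore not of distal elements alone, and their relation to gene density was not tested. Within 50 kb of the start, but not at it, expressed genes had a median of 3 ATAC regions listed in 3 of 3 libraries and silent genes 1. Genes at 100 TPM and above had a median of 4, and 6.999% of them had none, against 35.8% of genes listed at 0. Between these ends the median was 3 for genes of 0.1 to 1 TPM, 2 for those of 1 to 5, 2 for those of 5 to 20 and 3 for those of 20 to 100 TPM.

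Against this baseline the identity genes were compared in THC-treated cells with limma on log2(TPM + 1), with p-values adjusted by Benjamini-Hochberg over 13753 genes. The labels give untreated cells no time, so time in culture and THC cannot be told apart. Of 305 identity genes 148 passed the filter of a mean of 1 TPM over the 9 RNA libraries, and 122 differed at 24 h (46 higher and 76 lower with THC), where 76.7% of all tested genes did (25% higher and 51.7% lower). At 72 h 110 differed (49 higher and 61 lower), where 73.1% of all did (40.1% higher and 33% lower). The numbers of identity genes called say nothing particular about them, since most tested genes were called. The median log2 change of all tested genes was -0.23 at 24 h and 0.06 at 72 h, and with each library centred on its median the identity genes called at 24 h were 58 higher and 59 lower. Of 27 epithelial markers tested, 16 were higher and 8 lower at 24 h, with a median log2 change of 0.30, and 6 were higher and 11 lower at 72 h, with a median of -0.12. Of 14 Müllerian factors tested, 2 were higher and 10 lower at 24 h, with a median log2 change of -0.58, and 3 were higher and 6 lower at 72 h, with a median of 0.02.

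KRT7 had 1900.0, 1889 and 1842 TPM at 24 h of THC, against 977, 948 and 952 TPM in untreated cells, a log2 change of 0.97 (SE 0.0407, limma adjusted p = 1.37e-08). KRT18 rose by 0.84 at 24 h and 0.93 at 72 h on the log2 scale, and LAMB3 by 2.37 and 1.41. CDH1 was higher at 24 h, with a log2 change of 0.37, and lower at 72 h, with -0.40. EPCAM changed by 0.14 and -0.14 on that scale. The 24 h call of EPCAM did not hold without untreated replicate 1 or 3 or THC replicate 2 or 3 (log2 changes between 0.12 and 0.17 over the left-out libraries), the 72 h call without any 1 of the untreated replicates or THC replicate 1 (log2 changes between -0.17 and -0.08 over the left-out libraries), and neither without a filter on low values. With each library centred on its median the EPCAM changes were 0.36 at 24 h (limma adjusted p = 1.46e-04) and -0.22 at 72 h (limma adjusted p = 0.00299), and the 24 h changes of KRT8 and CDH1 were 0.52 and 0.59. KRT8 rose by 0.30 at 24 h, and its difference of 0.0790 at 72 h did not pass (limma adjusted p = 0.0899). PAX8 had 456, 376 and 387 TPM at 24 h of THC, against 241, 244 and 261 TPM in untreated cells, and was 0.32 higher on the log2 scale at 72 h. PAX2 had 4.15, 3.83 and 4.46 TPM at 24 h of THC, against 13.02, 13.04 and 12.8 TPM in untreated cells. The libraries of KRT7, PAX8 and PAX2 did not overlap between 24 h of THC and untreated cells. How many of all tested genes also did not overlap was not counted. Since 76.7% of them were called at 24 h, this says nothing particular about these genes. The 2 PAX genes moved in opposite directions. The lowest value of any of the 5 defining epithelial markers in a THC library was 73.5 TPM, for CDH1 at 72 h. Between 72 h and 24 h of THC 7 of these 8 genes differed by limma, where 72.6% of all tested genes did (54.9% higher and 17.8% lower at 72 h).

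The share of expressed starts with H3K4me3 was 91.9 ± 0.237% with THC and 91.6 ± 0.174% in untreated cells (SD, n = 3 libraries each), and the difference did not pass a two-sided exact permutation test (p = 0.3, the smallest possible being 0.1). The difference was 0.268 percentage points, 0.403 without THC replicate 1 and 0.173 without untreated replicate 1. For ATAC the share was 90.1 ± 1.52% at 24 h of THC and 85.1 ± 7.72% at 72 h, against 92.3 ± 1.37% in untreated cells (exact permutation p = 0.2 at each time). The THC lists held 38495 to 80773 ATAC peaks and the untreated lists 65042 to 150884. Each list was then held to the same number of strongest peaks, 38495 for ATAC and 30098 for H3K4me3. The ATAC differences were then -1.30 percentage points at 24 h and -4.44 at 72 h, against -2.23 and -7.24 with all peaks. With those equal numbers every THC library lay below every untreated library at each time (exact permutation p = 0.1, the smallest the design allows), and for H3K4me3 every THC library lay above every untreated one, by 0.318 percentage points on average (exact permutation p = 0.1). Without THC replicate 2 at 72 h, whose list was the shortest, the difference with all peaks was -2.94. At silent starts the ATAC share was 16.1 ± 4.11% at 24 h of THC and 13.6 ± 7.11% at 72 h, against 28.9 ± 12.5% in untreated cells (exact permutation p = 0.2 at each time). An alternative chosen after seeing the data held each list to its 38495 strongest peaks, fewer than the 65042 used for the untreated lists alone. The silent share was then 7.78 ± 0.227% at 24 h and 7.94 ± 0.356% at 72 h, against 8.42 ± 0.211% in untreated cells. The differences thus shrank to -0.64 and -0.48 percentage points (exact permutation p = 0.1 and 0.2). None of these comparisons could pass 0.05 with 3 libraries against 3.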

How the data were processed

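Members were the untreated libraries of each assay, chosen by label, and the identity lists and tests were chosen with earlier results of these data known. The authors deposited TPM per gene, and peak lists called per library with a score, a fold enrichment ratio and -log10 p and q values per peak, per the file headers. The submitters' processing notes name GRCh38, the peak callers MACS2 2.2.7.1 and MACS3, the quantifier Salmon and, for reads, Bowtie2, Picard, SAMtools, FastQC and Trim Galore, without saying which step used which. The sources used here do not give read shifting, duplicate removal or the caller and control of each assay, and each could change peak number and width. The IgG control of CUT&RUN was not used here. Sequencing depth is unknown, so no counting interval can be given, and 3 libraries a group limit the precision.

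RefSeq protein-coding genes (20056) were matched to the table by symbol (19078) or older symbol (159), and 807 had no match. A start was marked when a peak overlapped 1000 bases to either side, and width was the summed length of those merged peaks. Stricter peaks had a -log10 q of at least 5 (ATAC) or 10 (H3K4me3). THC was compared by limma 3.58.1 on log2(TPM + 1) of all 9 RNA libraries, with no covariate, for genes with a mean of at least 1 TPM, and shares of starts by a two-sided exact permutation test. Named genes were the 10 of highest TPM, the 10 with the widest H3K4me3, the 10 highest with neither mark, the 10 silent with the widest H3K4me3, and any gene of the lists. The 8 genes named with THC were chosen with their values known. Some genes that this rule names are not reported here. Software was Python 3.11.15, pandas 2.3.3, numpy 2.4.6, scipy 1.17.1, matplotlib 3.10.9 and R 4.3.3. Alternatives covered window, peak threshold, nearby starts, expression limits, pseudocount, filter, centring, replicate number and left-out libraries.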

Additional observations from a re-analysis of the deposited data

Results flagged for a closer look

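The change with THC differed between 72 h and 24 h for 7 of 8 genes, by limma on the difference between the times, where 72.6% of all tested genes differed. The 8 were chosen with their values known, so their count says nothing particular about them. On the log2 scale the 72 h minus 24 h difference was -0.67 for KRT7 (limma adjusted p = 3.82e-07), -0.22 for KRT8 (4.79e-04), -0.28 for EPCAM (8.15e-04) and -0.77 for CDH1 (3.35e-07). It was -0.96 for LAMB3 (limma adjusted p = 7.33e-07) and -0.38 for PAX8 (0.00264). PAX2, which was lower with THC at both times, differed by 0.39 (limma adjusted p = 0.00244), and KRT18 by 0.0823, which did not pass (limma adjusted p = 0.206).

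These values hold a general shift, since the median difference of all tested genes was 0.26. With each library centred on its median, an alternative chosen after seeing the data, the difference was -0.98 for KRT7, -0.53 for KRT8, -0.58 for EPCAM, -1.08 for CDH1, -1.27 for LAMB3 and -0.68 for PAX8, all larger in size. PAX2 no longer passed, at 0.0895 (limma adjusted p = 0.400), and KRT18 passed with the opposite sign, at -0.22 (limma adjusted p = 0.00338). No cause was tested.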

How the results depend on the processing

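Shares of starts with a mark and the mean rho of width and TPM moved with the processing, and neither rho changed sign. The main rho was 0.42 for H3K4me3 and 0.38 for ATAC. The main shares were 91.6% of expressed and 7.75% of silent starts for H3K4me3, and 92.3% and 28.9% for ATAC. With a window of 500 bases they were 90.9% and 6.32% for H3K4me3 with a rho of 0.41, and 89.7% of expressed starts for ATAC. With 2000 bases they were 92.6%, 10.2%, 0.44 and 94.2% in the same order. Stricter peaks gave 90.6%, 5.83%, 0.39 and 81.5%, with 6.96% of silent starts and a rho of 0.17 for ATAC. Without starts near another gene's start they were 88.1%, 5.14%, 0.50 and 89.2%. With expressed genes at 5 TPM or more and silent genes at 0, shares were 94.3% and 3.06% for H3K4me3 and 94.4% of expressed starts for ATAC. Alternatives chosen after seeing the data gave 6.62% of silent starts with H3K4me3 and a rho of 0.40 for genes with a strand, an ATAC rho of 0.30 with equal numbers of peaks, and rho of 0.33 for H3K4me3 and 0.10 for ATAC among expressed genes. Leaving out each replicate in turn gave 91.5 to 91.7% and 7.60 to 7.98% for H3K4me3, 91.8 to 93.1% and 22.7 to 35.2% for ATAC, and rho of 0.42 to 0.43 and 0.35 to 0.43. The identity genes called with THC numbered 110 to 123 at 24 h and 106 to 114 at 72 h when each replicate was left out. The differences in share with THC ranged over 0.173 to 0.403 percentage points for H3K4me3, -3.01 to -1.49 for ATAC at 24 h and -10.4 to -2.94 at 72 h. Replicate numbers did not pair the RNA samples (correlations of same-numbered deviations -0.20 to 0.25). With the replicate number as a block 119 identity genes were called at 24 h and 110 at 72 h. With each library centred on its median the 72 h minus 24 h difference of KRT18 turned to -0.22 and that of PAX2 was 0.0895. The cause of these shifts was not tested. Unknown depth and ATAC lists of unequal length limit what an absent ATAC peak can show.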
